A study of Homo sapiens with 6 samples.

Results

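The enzymes that make, modify and cut transfer RNA, together with the core proteins of small RNA production, were followed in a human breast cancer cell line, MDA-MB-453, after knockdown of tRF-1-Ser. The 51 genes were listed by name for their role, by a rule that uses no measured value but was written with earlier results of these data known, and all 51 were found among the 36517 genes of the count table. Each of them passed the filter on low counts. The control group (lv_con, n = 3) was MDA-MB-453 transduced with lentivirus carrying a negative control hairpin, and the shtRF group (lv_shtRF, n = 3) was the same line transduced with virus that encoded a hairpin directed at tRF-1-Ser. Both groups were labelled day 3, and both carry a lentiviral hairpin. The study's paper describes the sequenced knockdown cells as stable, and the sample labels do not say what day 3 counts from. Whether the cells were clones or mixed populations, and whether the 3 libraries of a group came from separate transductions, is not given in the sources used here, so p-values measure the spread between these libraries.

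A transfer RNA (tRNA) is transcribed as a precursor. RNase P removes the 5′ leader, RNase Z (ELAC2, or ELAC1 in its short form) cuts off the 3′ trailer, the La protein (SSB) shields the trailer's uridine end, and TRNT1 adds the CCA end. Some precursors carry an intron that the TSEN complex removes before the ligase RTCB joins the ends, and many bases are then modified. tRF-1 fragments, of which tRF-1-Ser is one, are released 3′ trailers, while angiogenin (ANG) cuts mature tRNA in the anticodon loop. MicroRNAs use a separate route through DROSHA, DGCR8, XPO5 and DICER1, and both microRNAs and tRNA fragments can be loaded onto Argonaute proteins. The libraries were made from messenger RNA, so they report the transcripts of these enzymes and neither tRNA nor its fragments. The knockdown itself could not be examined.

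Library totals lay between 63541413 and 78917459 counts. Log2(CPM + 1) correlated at 0.9973 to 0.998 within groups and 0.9879 to 0.9894 between them (CPM, the count scaled to a common library size). The 9 epithelial and luminal breast markers were each at 13.7 RPKM or more in every library (RPKM, the count scaled by exonic length and library total, the scale used here to compare genes). Of 8 markers of leukocytes, fibroblasts and endothelium, 6 had at most 10 counts in any library. The exceptions were CD68, at 1.92 to 2.41 RPKM in control and 2.46 to 3.71 RPKM in shtRF, and COL1A1, at 3.03 to 3.65 and 2.04 to 2.17 RPKM. The summed level of the 8 was 4.98 to 5.91 RPKM in control and 4.54 to 5.90 RPKM in shtRF, and the part of these markers in the results was not tested.

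The 51 genes shifted little, and in both directions. In shtRF 7 were higher and 12 were lower at an adjusted p under 0.05 (edgeR quasi-likelihood test, adjusted over all 19628 genes tested), and 32 did not pass. That is 13.7% higher and 23.5% lower, where 20.6% of all tested genes were higher, 18.9% were lower and 39.5% passed in either direction. No gene of the set passed the threshold with a change of over 2-fold, against 2.66% of all genes above and 3.11% below. The median absolute log2 fold change was 0.17 over the set and 0.26 over all tested genes, and the median signed values were -0.04 and -0.0025. The set was more abundant than all tested genes (median 4.61 against 2.38 RPKM), and these comparisons were not matched for level. All 3 shtRF libraries lay above all 3 control libraries for 8 genes (15.7%, against 24.9% of all genes) and below them for 15 genes (29.4%, against 23.8%). Since bulk RNA was sequenced, fewer cells with a transcript and less of it per cell cannot be told apart.

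The genes that rose were TRMT6, ALKBH8, ELAC2, RTCB, POP4, RPP25 and DICER1. Those that fell were ELAC1, ADAT2, XPO5, XPOT, POP7, SSB, TSEN34, AGO2, TRMT2A, ELP3, PUS1 and NSUN2. Of the 19, 10 kept direction and call in each of the 16 alternative analyses that tested them, namely ELAC2, SSB, TSEN34, RTCB, XPOT, TRMT2A, TRMT6, ALKBH8, XPO5 and AGO2. SSB and TRMT2A were tested in 15, since the fit on genes with under 10% of exon shared left them out.

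**Figure D1:**
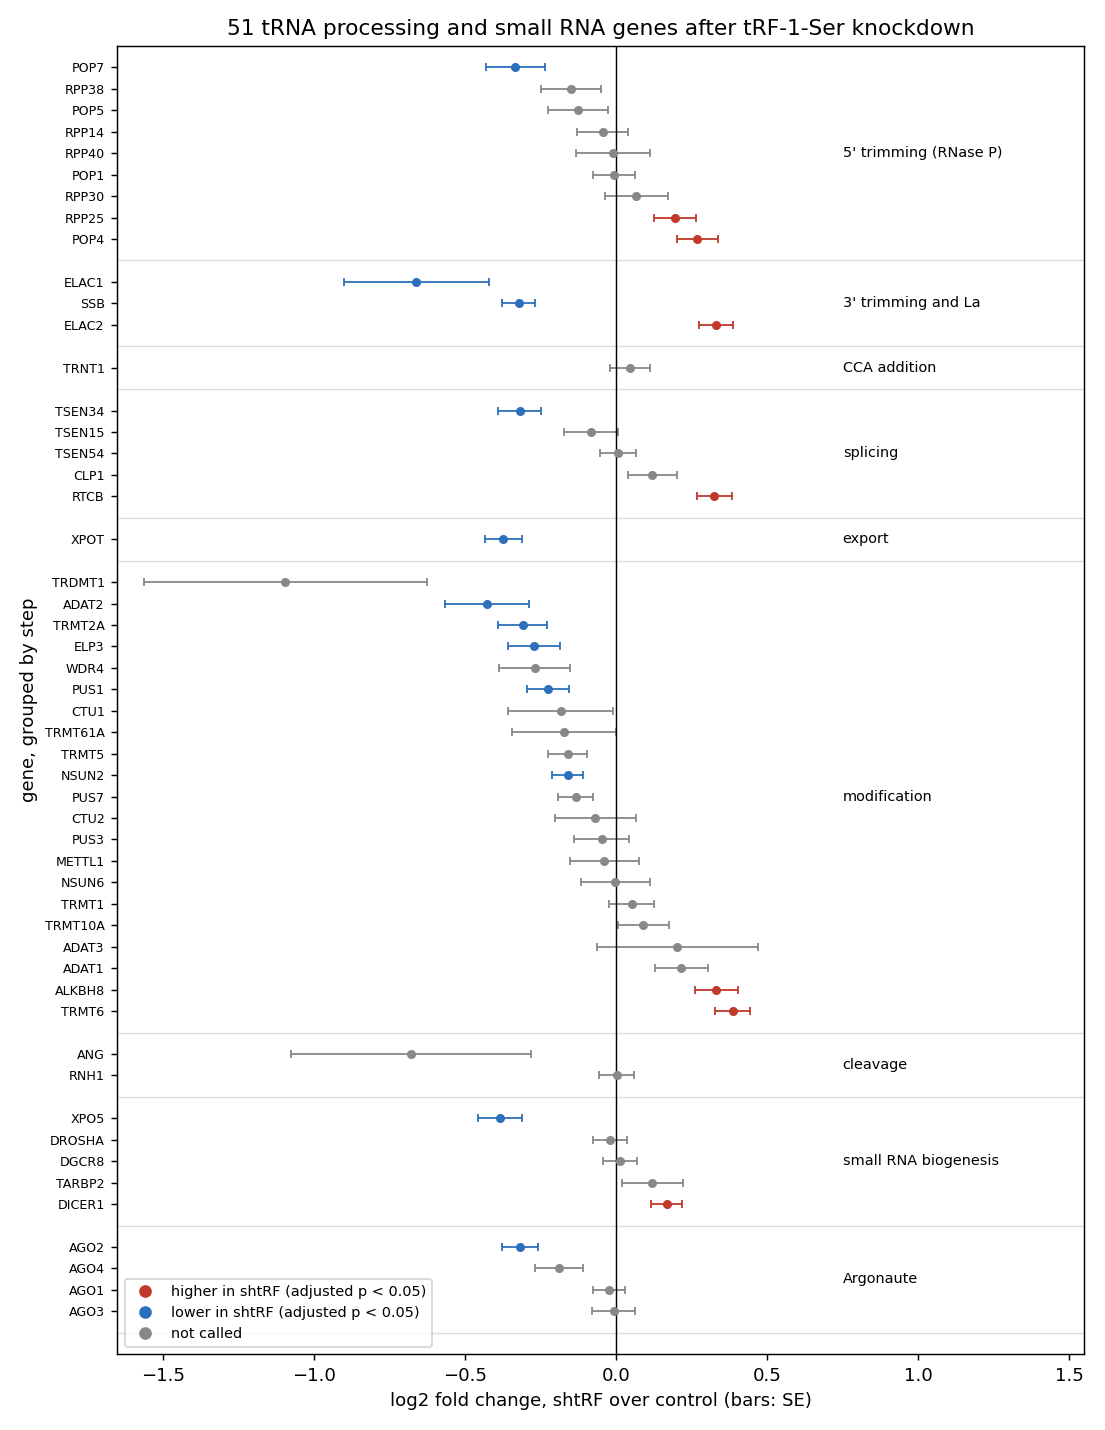
Log2 fold change of shtRF over control for each of the 51 genes (x axis, log2 units; bars are SE), grouped by step on the y axis. Red genes were higher and blue genes lower at an adjusted p under 0.05, and the called changes run from -0.66 (ELAC1) to 0.39 (TRMT6).

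The transcripts spanned a wide range of abundance. Per kilobase, SSB was the most abundant in control at 103 RPKM, followed by RTCB (60.5), TRMT6 (29.6), DGCR8 (17.5), DICER1 (17.2) and NSUN2 (16.8). In all, 11 genes were above 10 RPKM in control and 7 were below 1 RPKM, those 7 being TRDMT1, ADAT3, ANG, ELAC1, ADAT2, TRMT61A and AGO3. The median over the set was 4.61 RPKM over the 6 libraries, against 2.38 RPKM for all tested genes. Replicates were close, with a median coefficient of variation of 6.58% in control and 5.95% in shtRF. The highest value was 58.9%, for TRDMT1 in shtRF.

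**Figure D2:**
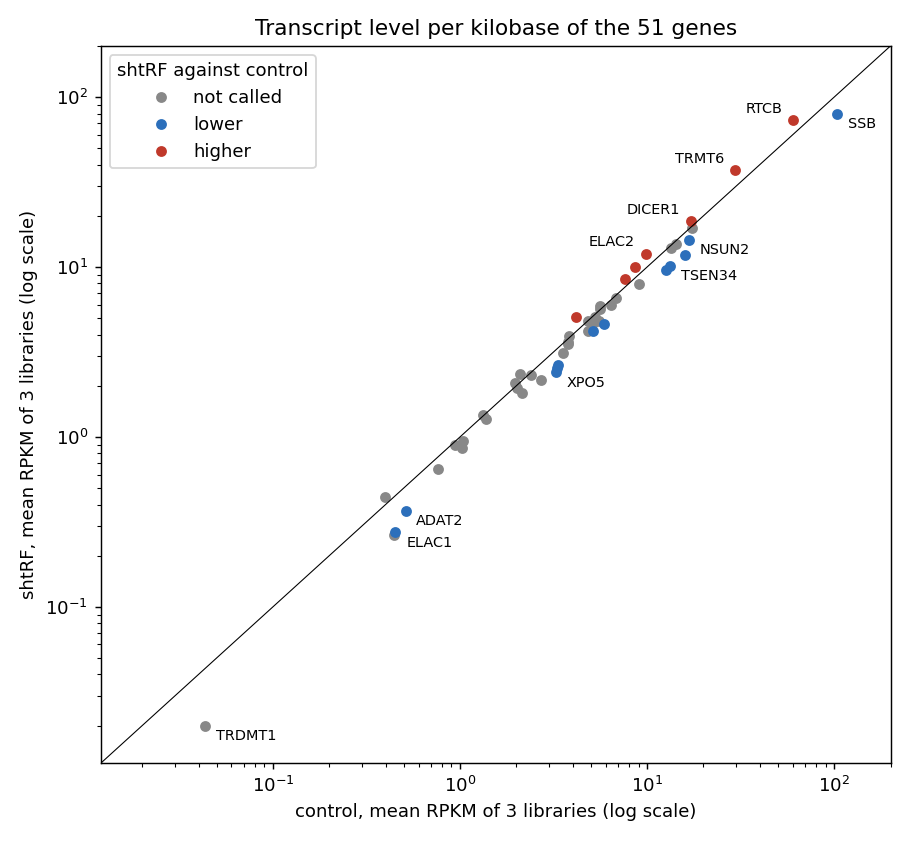
Mean RPKM of 3 shtRF libraries (y axis, log scale) against mean RPKM of 3 control libraries (x axis, log scale) for the 51 genes, with the line of equal level. SSB, at 103 RPKM in control and 79.7 RPKM in shtRF, lies below the line, and RTCB, at 60.5 and 73.1 RPKM, lies above it.

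Trimming of the 3′ end is the step that yields tRF-1 fragments, and its 3 genes passed the threshold, as 39.5% of all tested genes did in either direction. ELAC2 (chromosome 17, 12992391 to 13018187, GRCh38), the long RNase Z that cleaves the trailer in nucleus and mitochondria, had 61.7, 60.4 and 62.7 CPM in control and 73.8, 76.6 and 82.1 CPM in shtRF. Every shtRF library lay above every control library. The log2 fold change was 0.33 ± 0.06 (SE; edgeR adjusted p = 5.17e-05), a rise of 25.8%.

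ELAC1 (chromosome 18, 50967991 to 50988121), the short RNase Z, was scarce, with 1.32, 1.87 and 2.09 CPM in control and 1.15, 1.43 and 0.758 CPM in shtRF. These groups overlapped, because control replicate 1 lay below shtRF replicate 2. Its log2 fold change was -0.66 ± 0.24 (SE, edgeR), with an adjusted p of 0.0328. The raw counts were 86, 141 and 167 against 81, 98 and 47. Of the ELAC1 exon, 8.51% overlaps RP11-729L2.2 on the same strand (log2 fold change -0.08). That gene was at 4.83 RPKM in control, against 0.451 RPKM for ELAC1. The ELAC1 call was lost when control replicate 2 (adjusted p = 0.0877) or 3 (0.139), or shtRF replicate 1 (0.0639) or 3 (0.172), was left out. It was also lost with limma-trend on both RPKM scales (0.0723 and 0.0843), which makes 6 of 16 alternatives.

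SSB (chromosome 2, 169791933 to 169812064) encodes La, which binds the uridine end of new RNA polymerase III transcripts. It was at 510, 513 and 536 CPM in control and 400, 443 and 404 CPM in shtRF, with no overlap. The log2 fold change was -0.32 ± 0.06 (SE; edgeR adjusted p = 6.86e-05). Of the SSB exon, 11.2% overlaps METTL5 on the opposite strand, which had a log2 fold change of -0.22. The kit was stranded, but whether the counting used strand is not given in the sources used here. On the per-length scale the ratio of ELAC2 to ELAC1 was 29.2, 20.3 and 18.8 in control and 40.0, 33.6 and 67.8 in shtRF.

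The sequences before the starts of these genes are shown because the genes of this step moved in opposite directions, together with those of POP7 (lower) and TRMT6 (higher). Each run is the 250 bases upstream of a RefSeq gene start (GRCh38.p14), which need not be the outermost start in the count table, 5′ to 3′ on the strand of the gene. Capitals mark matches, on either strand, to the E-box letters CACGTG, the ETS core CCGGAAG and the CCAAT box CCAAT.
ELAC2, chr17:13018028-13018277, minus strand: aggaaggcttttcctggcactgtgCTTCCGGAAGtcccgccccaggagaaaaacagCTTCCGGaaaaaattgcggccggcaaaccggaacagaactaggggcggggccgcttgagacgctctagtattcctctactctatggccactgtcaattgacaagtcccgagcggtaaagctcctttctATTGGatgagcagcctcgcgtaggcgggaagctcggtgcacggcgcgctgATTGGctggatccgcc
ELAC1, chr18:50967790-50968039, plus strand: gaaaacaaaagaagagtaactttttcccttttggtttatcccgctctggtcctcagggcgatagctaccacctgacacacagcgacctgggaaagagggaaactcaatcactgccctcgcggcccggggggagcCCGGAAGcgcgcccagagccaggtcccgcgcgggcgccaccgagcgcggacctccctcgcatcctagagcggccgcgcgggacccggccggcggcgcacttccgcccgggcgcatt
SSB, chr2:169799052-169799301, plus strand: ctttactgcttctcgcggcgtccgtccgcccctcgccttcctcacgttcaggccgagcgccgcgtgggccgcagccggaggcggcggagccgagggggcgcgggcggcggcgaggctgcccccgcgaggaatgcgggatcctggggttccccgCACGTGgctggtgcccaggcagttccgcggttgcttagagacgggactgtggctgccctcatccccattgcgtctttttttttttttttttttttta
POP7, chr7:100705871-100706120, plus strand: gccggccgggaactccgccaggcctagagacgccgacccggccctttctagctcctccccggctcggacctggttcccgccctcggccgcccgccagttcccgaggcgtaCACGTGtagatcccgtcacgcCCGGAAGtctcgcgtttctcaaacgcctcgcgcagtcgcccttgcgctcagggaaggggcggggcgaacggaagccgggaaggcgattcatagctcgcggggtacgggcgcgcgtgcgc
TRMT6, chr20:5950534-5950783, minus strand: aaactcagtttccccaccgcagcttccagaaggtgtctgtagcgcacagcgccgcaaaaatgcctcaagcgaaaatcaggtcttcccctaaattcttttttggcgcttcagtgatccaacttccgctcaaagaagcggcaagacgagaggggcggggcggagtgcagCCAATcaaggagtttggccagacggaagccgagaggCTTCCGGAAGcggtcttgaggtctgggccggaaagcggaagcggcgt

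The ELAC2 stretch holds 3 ETS matches, 2 of which overlap, and 2 CCAAT matches. The ELAC1 stretch holds 1 ETS match, and the SSB stretch 1 E-box, at position -97 from the start. SSB is shown at the RefSeq start whose window holds an E-box, and the window of its other start holds a CCAAT match at -140. The POP7 stretch holds an E-box at -140 and an ETS match at -119, and the TRMT6 stretch holds overlapping ETS matches and a CCAAT match at -83. TRMT6 also has an E-box at position 4, after its start and so outside the printed stretch. The windows of ADAT2, TSEN34 and XPO5, which fell, and of RPP25, which rose, held none of these motifs and are not printed. RefSeq windows of 300 bases, which run from 250 before to 50 after a start, were matched for 42 of the 51 genes. AGO2, ELP3, METTL1, NSUN2, POP1, PUS1, TRMT2A, TSEN15 and TSEN54 were not matched. Of these, AGO2, ELP3, NSUN2, PUS1 and TRMT2A fell and none rose, so the genes that fell are counted only in part. A gene with several windows was counted if any of them held the letters. The ETS core was present for 13 of the 42 (31%), against 12.2% of 27305 RefSeq genes. It was present for 3 of 7 genes that rose, 3 of 7 that fell and 7 of 28 that did not pass. The CCAAT box was present for 18 of the 42 (42.9%), against 39.7% of all genes. It was present for 5 of 7 genes that rose, 1 of 7 that fell and 12 of 28 that did not pass. The E-box was present for 6 of the 42 (14.3%) and 8.77% of all genes. It was present for 1 of 7 genes that rose, 2 of 7 that fell and 3 of 28 that did not pass. These are matches of letters, not sites of binding. The shares over all genes that rose or all that fell were not computed, so the counts by direction have no background beside them.

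The 9 protein subunits of RNase P in the set, most of which also serve the related RNase MRP, did not move together. POP4 and RPP25 rose (22.2%, against 20.6% of all tested genes), POP7 fell (11.1%, against 18.9%) and 6 did not pass. POP4 (chromosome 19, 29604017 to 29617237), a core subunit that binds the catalytic RNA, had 53.9, 49.5 and 63.0 CPM in control and 65.5, 66.2 and 68.9 CPM in shtRF. The groups did not overlap, although control replicate 3 came close, and the log2 fold change was 0.27 ± 0.07 (SE; edgeR adjusted p = 0.0035). With limma-trend on log2(RPKM + 1), the adjusted p was 0.0815.

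POP7 (chromosome 7, 100706053 to 100707495), which pairs with RPP25 in the complex, had 12.1, 13.1 and 11.51 CPM in control and 8.54, 11.2 and 9.47 CPM in shtRF. Its log2 fold change was -0.33 ± 0.10 (SE; edgeR adjusted p = 0.00966), and without shtRF replicate 1 the adjusted p was 0.0669. RPP25 was at 21.8, 21.8 and 25.3 CPM in control and 26.7, 25.9 and 26.3 CPM in shtRF. The partners POP7 and RPP25 thus had estimates of opposite sign, -0.33 and 0.20. The RPP25 estimate of 0.20 ± 0.07 (SE; adjusted p = 0.0319) passed narrowly and lost its call in 9 of 16 alternatives. Leaving out control replicate 1 or 2 gave an adjusted p of 0.14 or 0.152, and leaving out shtRF replicate 1, 2 or 3 gave 0.108, 0.0626 or 0.0796. RPP25L, a paralogue of RPP25 and not one of the 51, was lower by 0.34 on the log2 scale (log2 fold change -0.34, adjusted p = 0.00799). POP1, POP5, RPP14, RPP30, RPP38 and RPP40 had log2 fold changes from -0.15 (RPP38) to 0.07 (RPP30). The 95% intervals were -0.15 to 0.14 for POP1, the large scaffold subunit, and -0.26 to 0.25 for RPP40. For RPP14 and RPP38, 22.5% and 26.9% of the exon overlaps other genes.

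TRNT1, which adds the CCA end, was at 25.6, 26.5 and 26.6 CPM in control and 25.2, 28.3 and 27.8 CPM in shtRF. The groups overlapped, and the 95% interval of the log2 fold change was -0.09 to 0.18.

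In tRNA splicing, 1 nuclease subunit fell and the ligase rose. Each is 20% of the 5 genes, where 18.9% of all tested genes were lower and 20.6% higher. TSEN34 (chromosome 19, 54189938 to 54194536), a catalytic subunit of the splicing endonuclease, had 44.1, 52.2 and 41.4 CPM in control and 37.1, 36.3 and 37.0 CPM in shtRF. Its shtRF libraries were all below control, with a log2 fold change of -0.32 ± 0.07 (SE) and an adjusted p of 0.000966 by edgeR. The structural subunit TSEN15 had 13.3, 12.7 and 10.97 CPM in control and 11.4, 12.04 and 11.4 CPM in shtRF (-0.08). Another, TSEN54, had 45.04, 44.02 and 46.4 CPM and 48.4, 43.03 and 44.8 CPM (0.01). Both overlapped between groups. CLP1, a kinase bound to the endonuclease, had 13.99, 16.1 and 16.3 CPM in control and 15.7, 17.5 and 17.2 CPM in shtRF and did not pass (adjusted p = 0.259).

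RTCB (chromosome 22, 32387582 to 32412255), the catalytic subunit of the tRNA ligase, had 165, 175 and 185 CPM in control and 209, 218 and 232 CPM in shtRF. Control and shtRF did not overlap, and the log2 fold change was 0.33 ± 0.06 (SE; edgeR adjusted p = 9.45e-05). Other subunits of the ligase complex differed from it. FAM98B (-0.32, adjusted p = 0.000391) and RTRAF (-0.31, adjusted p = 0.00069) fell, while DDX1 (0.10, adjusted p = 0.167) and the activator ZBTB8OS (0.15, adjusted p = 0.0786) did not pass, although all shtRF libraries of ZBTB8OS lay above control. Of the RTRAF exon, 23.0% overlaps NID2 on the opposite strand. The RPKM ratio of RTCB to FAM98B was 13.2, 14.1 and 13.8 in control and 19.9, 20.9 and 23.9 in shtRF.

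XPOT (chromosome 12, 64404350 to 64451127) encodes the receptor that carries mature tRNA out of the nucleus. It had 121, 119 and 104 CPM in control and 92.0, 86.3 and 87.6 CPM in shtRF, without overlap. The log2 fold change was -0.37 ± 0.06 (SE; edgeR adjusted p = 3.27e-05), a fall by 22.8%.

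**Figure D3:**
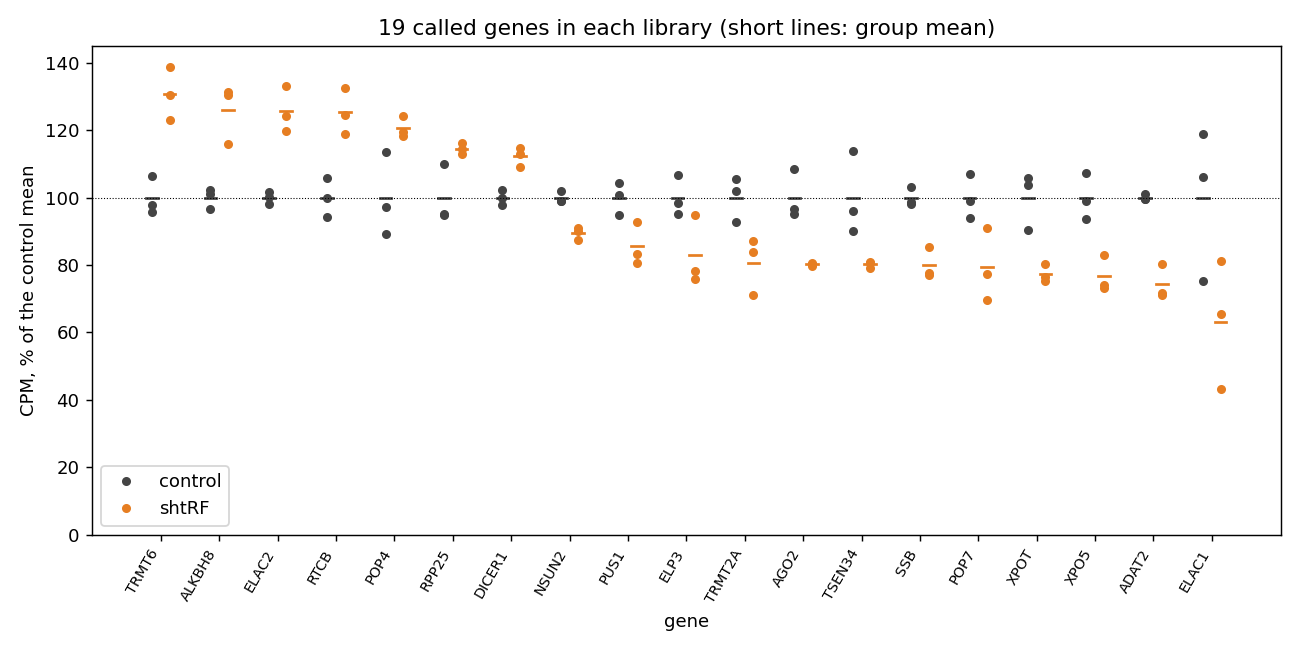
CPM of each library as a percentage of the control mean (y axis) for the 19 genes past the threshold (x axis), with control in grey, shtRF in orange and short lines for group means of 3 libraries. The groups overlap for ELAC1 and for none of the other 18 genes.

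Base modification enzymes made up 21 of the 51 genes, of which 2 rose (9.52%, against 20.6% of all tested genes), 5 fell (23.8%, against 18.9%) and 14 did not pass, with a median log2 fold change of -0.13. TRMT6 (chromosome 20, 5937235 to 5950558), the RNA-binding subunit of the methyltransferase that methylates an adenosine of the T loop, had 107, 105 and 117 CPM in control and 135, 152 and 143 CPM in shtRF. The shtRF libraries were all higher, by 0.39 ± 0.06 on the log2 scale (SE; edgeR adjusted p = 1.38e-05). Its catalytic partner TRMT61A was scarce, at 2.21, 2.66 and 2.38 CPM in control and 2.14, 2.52 and 1.77 CPM in shtRF. Those groups overlapped (log2 fold change -0.17, 95% interval -0.53 to 0.19). TRMT6 exceeded TRMT61A 33.7- to 41.9-fold per length in control and 51.7- to 68.9-fold in shtRF.

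ALKBH8 (chromosome 11, 107502726 to 107565746), which completes a wobble uridine modification, was the other gene of this group that rose. It had 17.9, 18.9 and 18.6 CPM in control and 21.4, 24.1 and 24.2 CPM in shtRF (log2 fold change 0.33 ± 0.07, SE; edgeR adjusted p = 0.000788). ELP3, the catalytic subunit of Elongator, which acts earlier on the same uridine, fell from 18.8, 16.7 and 17.3 CPM to 13.3, 13.8 and 16.7 CPM. Control replicate 2 and shtRF replicate 3 of ELP3 differed by less than 0.1 CPM. Its log2 fold change of -0.27 ± 0.09 (SE; adjusted p = 0.0165) lost its call when control replicate 1 (0.0706), shtRF replicate 1 (0.0911) or shtRF replicate 2 (0.0894) was left out. The thiolation enzymes CTU1 and CTU2, at 1.63 to 2.20 and 3.25 to 3.77 CPM, did not pass (-0.18 and -0.07).

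The deaminases that turn adenosine into inosine differed from each other. ADAT2 (chromosome 6, 143422832 to 143450673), the catalytic subunit for the anticodon, fell from 3.58, 3.64 and 3.58 CPM to 2.89, 2.56 and 2.58 CPM. No library overlapped, and the log2 fold change was -0.43 ± 0.14 (SE; edgeR adjusted p = 0.0175), with the call lost without shtRF replicate 2 (0.0624) or 3 (0.0588). Its partner ADAT3 had 0.753, 1.06 and 0.802 CPM in control and 1.22, 0.757 and 1.03 CPM in shtRF. ADAT3 did not pass, and 35.4% of its exon overlaps SCAMP4 on the same strand. ADAT1, which acts next to the anticodon of alanine tRNA, had a log2 fold change of 0.22 (adjusted p = 0.0585), with all shtRF libraries above control. It passed without shtRF replicate 1 (0.0491).

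Among base methyltransferases, TRMT2A, a uridine methyltransferase, fell from 24.2, 23.4 and 21.3 CPM to 19.3, 16.3 and 20 CPM (log2 fold change -0.31 ± 0.08, SE; edgeR adjusted p = 0.00396). Of its exon, 10.2% overlaps other genes, above all RANBP1 on the opposite strand, which had a log2 fold change of -0.17 (edgeR adjusted p = 0.0201). RANBP1 was at 132.6 RPKM in control, against 5.90 RPKM for TRMT2A. The part of overlapping reads in the fall of TRMT2A was not tested. TRMT1 (0.05) and TRMT10A (0.09) did not pass. TRMT5, a guanosine methyltransferase, was lower in all shtRF libraries but just missed the threshold at -0.16 (adjusted p = 0.0548), and it passed in 7 of 16 alternatives, among them upper quartile scaling (0.0203) and the fit that left out control replicate 1 (0.0455).

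NSUN2, the main cytosine methyltransferase of tRNA, fell from 89.9, 89.9 and 92.8 CPM to 82.6, 79.5 and 81.9 CPM. The fall was small, by 10.5%, but larger than the spread between replicates (adjusted p = 0.0166). Without shtRF replicate 2 or 3 the adjusted p was 0.0852 and 0.0559. NSUN6, another cytosine methyltransferase, did not pass (95% interval -0.24 to 0.23). TRDMT1, the third of this kind, had 21, 38 and 42 counts in control and 15, 6 and 21 in shtRF. Its log2 fold change of -1.09 ± 0.47 (SE) did not pass (adjusted p = 0.0702), though it did without shtRF replicate 3 (0.0383). Counts of 1 to 4 were even in 74.2% to 77.1% of cases, against 49.7% to 50.8% of high counts. With all counts halved, TRDMT1 passed (-1.11, adjusted p = 0.0457).

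METTL1, which methylates a guanosine of the variable loop, and its partner WDR4 had log2 fold changes of -0.04 and -0.27. Neither passed, but WDR4 (adjusted p = 0.0722) did without control replicate 1 (0.0269) and with upper quartile scaling (0.042). Of the METTL1 exon, 23.4% overlaps other genes, above all METTL21B on the opposite strand. Of the pseudouridine synthases, PUS1 fell by 14.4% (log2 fold change -0.22, adjusted p = 0.0127), and its call was lost without shtRF replicate 1 (0.0698) or 3 (0.0651). PUS7 (-0.13, adjusted p = 0.0759) was below control in all shtRF libraries and passed in 7 of 16 alternatives, with adjusted p from 0.0196 (limma-trend) to 0.0482 (under 10% of exon shared) and 0.0474 without control replicate 1, and PUS3 (-0.05) did not pass.

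The ratio of paired genes was compared in each library for 7 pairs, the last of them, RTCB to FAM98B, chosen after its values were seen. With 3 libraries against 3, a two-sided exact permutation test cannot give a p below 0.1, so no pair could pass at 0.05. The groups did not overlap for ELAC2 to ELAC1, TRMT6 to TRMT61A, ADAT2 to ADAT3 and RTCB to FAM98B, each with an exact permutation p of 0.1 (0.175 adjusted over the 7 pairs). They overlapped for METTL1 to WDR4, CTU1 to CTU2 and DROSHA to DGCR8. Of all tested genes taken singly, 24.9% lay wholly above control in shtRF and 23.8% wholly below. The share over other gene pairs was not computed. Each pair without overlap holds a gene that passed the threshold by itself (ELAC2, TRMT6, ADAT2 or RTCB), so its ratio is not a separate result.

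**Figure D4:**
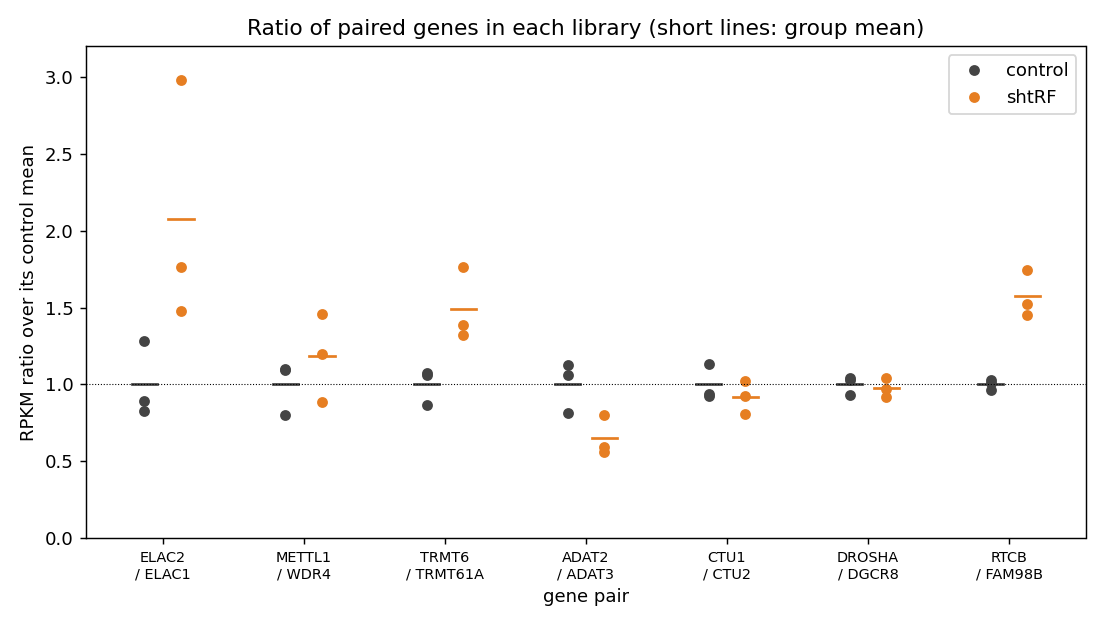
RPKM ratio of 7 gene pairs in each library, divided by the mean ratio of the 3 control libraries (y axis), with control in grey and shtRF in orange and short lines for group means. The mean ratio of ELAC2 to ELAC1 was 22.7 in control and 47.1 in shtRF, and that of DROSHA to DGCR8 was 0.823 and 0.804.

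The nuclease and the inhibitor of the cleavage step did not pass the threshold. ANG (chromosome 14, 20684177 to 20698971) had 58, 48 and 27 counts in control and 28, 20 and 29 in shtRF, and control replicate 3 lay within the shtRF range. The log2 fold change was -0.68 ± 0.40 (SE; edgeR adjusted p = 0.189). Of the ANG exon, 61.4% overlaps other genes, of which RNASE4 on the same strand covers 47.2%, so reads of both genes cannot be told apart there. RNASE4, of whose exon 72.6% overlaps other genes, fell from 1.83, 1.63 and 1.18 CPM to 0.883, 0.859 and 0.726 CPM (log2 fold change -0.90, adjusted p = 0.00435). RNH1, the cytosolic inhibitor of angiogenin, was far more abundant, at 39.7, 38.0 and 37.0 CPM in control and 37.2, 39.4 and 38.2 CPM in shtRF. The 95% interval of its log2 fold change was -0.12 to 0.12.

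In the microRNA route, the nuclear Microprocessor showed no change past the threshold. DROSHA had 108, 107 and 114 CPM in control and 102, 111 and 111 CPM in shtRF, and its RNA-binding partner DGCR8 had 132, 119 and 125 CPM and 127, 131 and 122 CPM. The 95% intervals of the log2 fold change, -0.13 to 0.09 and -0.10 to 0.13, were narrow.

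The exporter and the cytoplasmic nuclease that follow moved in opposite directions. Each is 20% of the 5 genes of this route, where 18.9% of all tested genes were lower and 20.6% higher. XPO5 (chromosome 6, 43522330 to 43576075), which exports hairpin precursors, fell from 25.4, 26.8 and 29.1 CPM to 20.1, 19.9 and 22.5 CPM. The log2 fold change was -0.38 ± 0.07 (SE; edgeR adjusted p = 0.000204), close to the -0.37 of the tRNA exporter XPOT. DICER1 (chromosome 14, 95086228 to 95158010), which dices the exported precursor, rose from 208, 204 and 212 CPM to 227, 235 and 239 CPM. That rise of 12.4% (log2 fold change 0.17 ± 0.05, SE; adjusted p = 0.0121) lost its call without control replicate 2 (0.0647) or shtRF replicate 3 (0.0658). TARBP2, the partner of DICER1, had 8.32, 8.46 and 7.002 CPM in control and 8.49, 8.08 and 9.26 CPM in shtRF and did not pass (adjusted p = 0.384).

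Of the 4 Argonaute genes, AGO2 fell (25%, against 18.9% of all tested genes) and the other 3 did not pass. AGO2 (chromosome 8, 140520156 to 140635619), the member that can slice its target, was at 48.9, 49.7 and 55.8 CPM in control and 41.5, 40.9 and 41.4 CPM in shtRF. The groups were apart, with a log2 fold change of -0.32 ± 0.06 (SE) and an adjusted p of 0.000192 by edgeR. AGO1, AGO3 and AGO4 lie side by side on chromosome 1, between 35808172 and 36072500. AGO1 had 50.8, 51.6 and 52.5 CPM in control and 50.8, 50.4 and 51.4 CPM in shtRF (95% interval of the log2 fold change -0.13 to 0.09). AGO3 had 20.6, 19.4 and 18.5 CPM and 20.3, 18.5 and 19.4 CPM (-0.16 to 0.14). AGO4 had 15.4, 16.0 and 14.3 CPM in control and 14.01, 13.2 and 12.9 CPM in shtRF. These did not overlap, but the fall missed the threshold (log2 fold change -0.19, adjusted p = 0.0629), which it passed in 4 of 16 alternatives: without control replicate 3 (0.0314), with upper quartile scaling (0.0268), under a minimum of 10 counts per library (0.0444) and with halved counts (0.0473).

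Per length, AGO2 made up 31.4%, 31.4% and 34.7% of the summed RPKM of the 4 Argonaute genes in control and 28.6%, 29.0% and 29.0% in shtRF. AGO1 was the most abundant of the 4 in each library, with 37.3% ± 0.0309 in control and 40.6% ± 0.635 in shtRF (SD, n = 3). The sum was 10.2 ± 0.138 RPKM in control and 8.86 ± 0.347 RPKM in shtRF. Part of this difference lies in the scale, since RPKM lacks the normalisation factors that CPM uses. AGO3 had a mean of 0.938 RPKM in control and 0.899 RPKM in shtRF, but 19.5 and 19.4 CPM.

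Other genes of the same steps, 89 by name, were counted in the same way, and 88 were in the table and were tested. Of these 13 were higher (14.8%) and 22 were lower (25.0%), with a median log2 fold change of -0.02, where 20.6% of all tested genes were higher and 18.9% lower. Without shtRF replicate 3, 14 were lower.

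Genes of this list with at least 2 CPM that rose included DIS3L2, TRMT1L and TP53RK. DIS3L2, an exonuclease of uridylated RNA, had 16.2, 14.95 and 16.3 CPM in control and 20.6, 20.7 and 23.4 CPM in shtRF (log2 fold change 0.45). TRMT1L, related to TRMT1, had 16.8, 19.9 and 15.9 CPM and 24.7, 23.4 and 22.1 CPM (0.42). TP53RK, a kinase of the complex that modifies adenosine beside the anticodon, had 12.8, 12.9 and 14.96 CPM and 17.6, 17.3 and 18.8 CPM (0.40). For each of the 3 the shtRF libraries lay above all control libraries. The largest falls at that level were those of THG1L, OSGEPL1, THUMPD1 and TRUB1. THG1L, which adds guanosine to histidine tRNA, had 10.1, 9.51 and 8.19 CPM in control and 5.07, 7.09 and 6.58 CPM in shtRF (-0.57). OSGEPL1, which modifies mitochondrial tRNA, had 2.31, 2.94 and 3.09 CPM and 2.02, 1.91 and 1.97 CPM (-0.50). THUMPD1, an adapter of tRNA acetylation, had 88.1, 95.1 and 92.2 CPM and 65.1, 74.4 and 65.0 CPM (-0.43). TRUB1, a pseudouridine synthase, had 17.2, 18.7 and 17.7 CPM and 13.4, 13.5 and 13.9 CPM (-0.39). Control and shtRF did not overlap for any of these 4. Each of the 7 genes had an adjusted p under 0.05, but OSGEPL1 lost its call without control replicate 2 or 3 or shtRF replicate 2, with adjusted p from 0.0572 to 0.0813. SLFN13, a nuclease that cleaves tRNA near its acceptor end, was lower at -0.38 (adjusted p = 9.68e-06), and TUT4, a terminal uridylyltransferase, at -0.39 (adjusted p = 7.22e-05). These last 2 were chosen after their values were seen. TUT7, another terminal uridylyltransferase of the list, did not pass (log2 fold change 0.14, adjusted p = 0.0718). In control it was at 14.2 RPKM, against 1.93 RPKM for TUT4. Of the GW182 proteins, which bind Argonaute, TNRC6C rose (0.26, adjusted p = 0.00494) and TNRC6A and TNRC6B did not pass.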

How the data were processed

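Messenger RNA of MDA-MB-453 cells was sequenced in 6 libraries, 3 per group, grouped by the sample titles. The authors deposited raw counts per gene and, in a second table, RPKM values. The submitters' processing notes list GRCh38, Trimmomatic 0.36, featureCounts, Subread 1.5.1 and edgeR 3.12.1, and the aligner is not given in the sources used here. In the part of the RPKM table used here, 4991 genes matched the counts, and 100% of their RPKM values equalled the count over exonic length and library total (relative tolerance 1e-05). RPKM was therefore computed from the counts for all genes.

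The counts as deposited were tested with edgeR 4.0.16 (R 4.3.3): filterByExpr with a minimum count of 10, TMM normalisation (factors 0.961 to 1.03), the quasi-likelihood test with group as the only term and Benjamini-Hochberg adjustment over 19628 genes. CPM uses TMM-scaled library sizes, and RPKM uses library totals without TMM factors. Errors are SE of the log2 fold change or SD over 3 libraries, and 95% intervals use the test's degrees of freedom. The common dispersion was 0.00572. In simulated counts, the only changed genes among 19306 were 64 changed by 0.5, 72 by 1 and 64 by 1.5 on the log2 scale. Of these edgeR recovered 28, 56 and 52, with 8 false calls. In the data 39.5% of all tested genes passed, so the simulated rates do not measure the sensitivity of the test here. Alternatives used DESeq2 1.42.0 and limma 3.58.1.

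The genes and lists were chosen with earlier results of these data known. Values per library are given, in each step, for up to 3 called genes per direction, by size of change (all genes of steps of up to 5), for ELAC1, ELAC2, SSB, ANG, DICER1 and AGO2, and of the wider list for RNASE4 and the 4 largest rises and falls at 2 CPM or more, except that results of some genes of that list are not reported here. Of the wider list, 6 genes were matched by an older symbol. Exon sharing was computed from the exon coordinates in the count table.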

Additional observations from a re-analysis of the deposited data

How the results depend on the processing

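The numbers of the 51 genes called higher (7) and lower (12) stayed within 1.5 times in each alternative: RLE scaling, upper quartile scaling, at least 10 counts in every library, only a filter on 1 count, DESeq2, limma-trend on log2(RPKM + 1) and log2(RPKM + 0.1), halved counts, genes with under 10% of exon shared and each fit without 1 library. Over all alternatives 5 to 7 were higher and 8 to 16 lower, and without 1 library 5 to 7 and 8 to 14. For the wider list these were 9 to 18 higher and 14 to 25 lower, and without 1 library 10 to 18 and 14 to 22, the 14 being without shtRF replicate 3. The replicate number did not pair libraries, as deviations of same-numbered libraries correlated at 0.059, 0.018 and 0.017. With the replicate block 7 of the 51 were higher and 13 lower, and WDR4 gained its call (0.0427). Of 935 values of 59 named genes, 833 kept direction and side of the threshold, 32 lost the call, 24 gained it and 46 changed sign, all of these in genes that had not passed. The sign changed for TRNT1 (-0.0064 on log2(RPKM + 1) and -0.0077 on log2(RPKM + 0.1)) and for NSUN6 with the replicate block (0.0057). For TSEN54 it was -0.029 with upper quartile scaling, -0.0066 with at least 10 counts, -0.044 and -0.047 on the RPKM scales, -0.0048 with halved counts and -0.0019 with under 10% of exon shared. For DGCR8 the same first 4 settings gave -0.023, -0.00082, -0.037 and -0.039. For RNH1 the values were -0.0011 (RLE), -0.034 (upper quartile), -0.0044 (no filter), -0.011 (at least 10 counts), -0.0011 (DESeq2), -0.043 and -0.050 (RPKM scales), -0.0090 (halved counts) and -0.0071 (under 10% of exon shared). Leaving out 1 library gave -0.076 to 0.036 for POP1, -0.070 to 0.046 for RPP40, -0.048 to 0.047 for TSEN54, -0.12 to 0.10 for NSUN6, -0.13 to 0.079 for METTL1, -0.15 to 0.013 for PUS3, -0.020 to 0.022 for RNH1, -0.046 to 0.014 for DROSHA, -0.034 to 0.046 for DGCR8 and -0.049 to 0.027 for AGO3. The cause of these changes was not tested. TRDMT1, ANG, ADAT3 and ELAC1 had the fewest counts of the 51 genes.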
